A study of Mus musculus with 32 samples.

Results

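DTRADQ mice that had received diphtheria toxin (DT) for 2 days were compared with DTRADQ mice that had received none, over all expressed genes of whole femoral marrow. The libraries were chosen by title: 4 carried DTRADQ with 2 days of DT and 4 carried DTRADQ without DT, 8 of the 32 libraries in the series, each from 1 mouse of 8 groups of 4. DTRADQ mice carry both iDTR, a Cre-dependent receptor for the toxin, and adiponectin-Cre, on a C57BL/6 background, so both groups compared here carry the receptor and the Cre driver and differ in the toxin. DT was given by intraperitoneal injection at 100 ng per mouse each day to animals 2 months old. Littermates with the DTR flox allele and no Cre, named Con, in which the receptor is not switched on, were compared without DT and after 2 days of DT. DTRADQ mice sampled after 1 day and after 3 days of DT place the second day in time, by values only for the third day.

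Adiponectin-Cre is active in marrow adipocytes and in the reticular stromal cells of the marrow that share their lineage, which secrete CXCL12 and stem cell factor and hold blood stem cells and B cell precursors in their niche. Cells that carry the receptor die when diphtheria toxin enters them and stops protein synthesis, and cells without it are spared because mouse cells bind the toxin poorly. Marrow stroma is also a source of BMP antagonists, which shield osteoblast precursors from bone morphogenetic proteins, and of extracellular matrix. In RNA from whole marrow, fewer cells of a type and less RNA per cell cannot be told apart.

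Totals were 13.48 to 18.06 M counts in DTRADQ without DT and 11.54 to 14.4 M after 2 days, and the labels name the same sequencing lanes for both groups. After 2 days, 1324 of the 14527 genes tested had changed (9.11%, edgeR's quasi-likelihood test, Benjamini-Hochberg adjusted p under 0.05), 620 higher (4.27%) and 704 lower (4.85%). Of these, 170 rose and 291 fell more than 2-fold, and the median log2 change over all genes was -0.02. Libraries of the 2 groups did not overlap for 20.8% of all genes tested. Counts within gene lists below are to be read beside these shares over all genes. The count rested on several single libraries: it was 545 without DTRADQ no-DT replicate 4, 725 without no-DT replicate 3, 652 without 2-day replicate 3 and 774 without 2-day replicate 2. In the other direction it was 2960 when Con no-DT replicates 3 and 4, which stand apart from the other control libraries, were left out of the model, and 2192 in a model of the 8 libraries alone.

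Both groups held a library that stood apart. Among the 8 libraries, the first principal component (41.5% of the variance) separated the groups, and the second (14.3%) set 2-day replicate 1 at 36.9 against -16.1 to -9.53 for the other 2-day libraries, and no-DT replicate 4 at -24.8 against 1.12 to 12.9. The summed level of 5 skeletal muscle markers was 35.3, 24.6, 91.7 and 279 CPM (counts scaled to a common library size by TMM) in no-DT replicates 1 to 4, and 14.7 to 47.1 CPM after 2 days. The 4 osteoblast markers summed to 173, 183, 284 and 416 CPM without DT and to 56.7, 95.6, 123 and 149 CPM after 2 days. Ibsp alone gave 141, 143, 237 and 175 CPM of this without DT and 33.5 to 58.9 CPM after 2 days. Col1a1 gave 28.6, 35.7, 43.6 and 219 CPM and then 21.3, 56.5, 83.3 and 85.7 CPM, and the groups of Bglap and Sp7 also overlapped. By the sums, no-DT replicate 4 was the highest library for both tissues, and its part in the results was not tested beyond leaving it out.

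**Figure D1:**
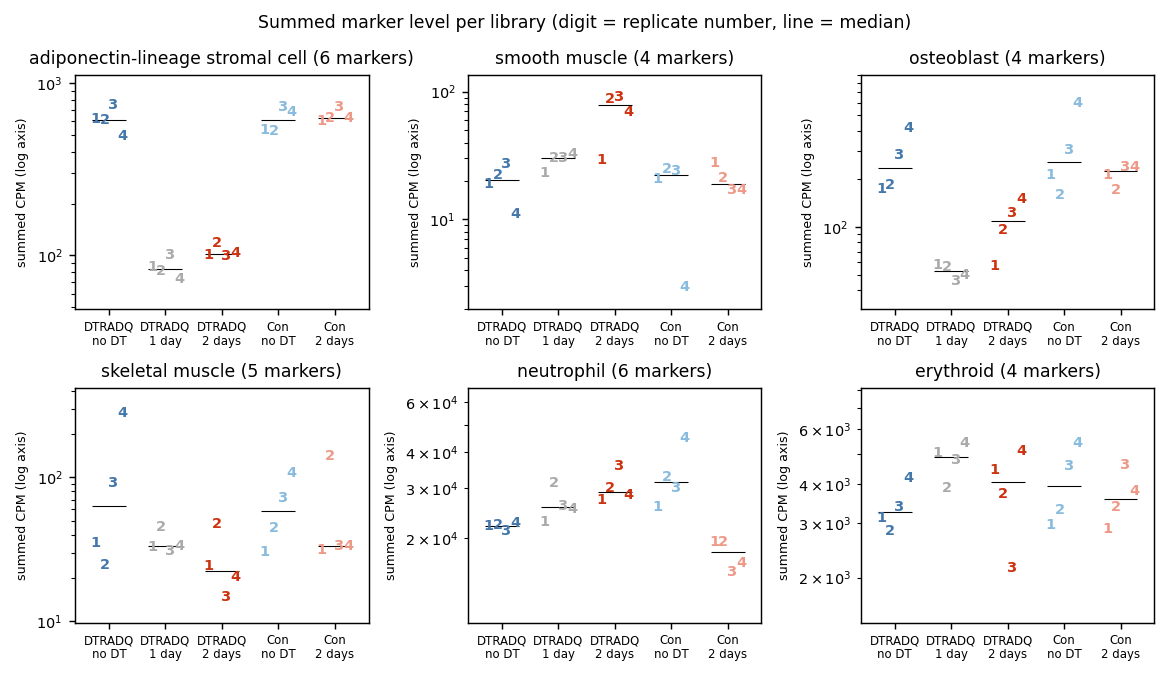
Summed CPM (log axis) of the markers of 6 cell types in each library of DTRADQ without DT, after 1 and 2 days, and of Con without DT and after 2 days, where a digit is a replicate number and a line the median. The 6 stromal markers summed to 493 to 748 CPM without DT and to 99.5 to 118 CPM after 2 days, and no-DT replicate 4 was the highest DTRADQ library for osteoblast and skeletal muscle markers.

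The stromal cells of the adiponectin lineage lost most of their RNA signal, and their list held more falls than any other examined. Of 30 tested genes known from these cells, 23 fell, with a median log2 change of -2.18. Adipoq, which encodes adiponectin and marks the targeted lineage (chromosome 16, 23146536 to 23158028 in GRCm38), read 28.6, 33.3, 47.6 and 28.8 CPM in the 4 mice without DT and 0.39, 0.612, 0.221 and 0.979 CPM in the 4 mice after 2 days. Every treated library lay far below every untreated one, and the log2 change was -6.02 (SE 0.38, edgeR adjusted p = 6.762e-13). Cxcl12, whose chemokine keeps blood stem cells in the marrow, read 400, 395, 466 and 302 CPM without DT and 30, 44.1, 36.1 and 33.3 CPM after 2 days. It fell by 3.45 on the log2 scale (SE 0.19, adjusted p = 3.225e-14).

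The leptin receptor gene Lepr, the usual surface marker of these cells, fell from 28.8 to 45.1 CPM to 1.66 to 3.38 CPM (log2 -3.85, SE 0.26, adjusted p = 2.55e-12). Kitl, which encodes stem cell factor, read 48.9, 46.7, 58.1 and 41.5 CPM without DT and 15.6, 10.1, 7.14 and 12.4 CPM with it. Its groups did not overlap, yet its log2 change of -2.11 (SE 0.20, adjusted p = 9.564e-09) was smaller than that of Adipoq. Il7, the growth factor of B cell precursors, fell by 1.90 (SE 0.45, adjusted p = 0.007442), from 1.04 to 2.28 CPM to 0.156 to 0.787 CPM. The transcription factors Ebf3 and Foxc1, which maintain the stromal state, fell by 3.24 and 2.15 on the log2 scale. Both receptors for platelet-derived growth factor fell, Pdgfra by 2.22 and Pdgfrb by 0.90. Of the 7 stromal genes that did not pass, Pparg, the adipogenic transcription factor, read 13.8 to 26.6 CPM without DT and 13.8 to 20.7 CPM after 2 days (log2 -0.20, SE 0.20). Vcam1 had a log2 difference of 0.52 (SE 0.20) and Ebf1 one of -0.06 (SE 0.24), and both are also expressed by blood cells of the marrow.

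Among all genes, the 10 largest falls by the naming rule were Chrdl1, Adipoq, Igfbp5, Gdpd2, Dpep1, Sfrp4, Lepr, Esm1, Kng2 and Agt. Igfbp5, a binding protein of insulin-like growth factors (IGF), had the smallest p of them. It read 65.7, 67.6, 81.1 and 96.3 CPM without DT and 1.71, 1.14, 1.32 and 1.47 CPM after 2 days (log2 -5.77, SE 0.25, adjusted p = 4.333e-17). Gdpd2, a membrane phosphodiesterase, and Dpep1, a dipeptidase, fell by 4.75 and 4.59. Kng2, a kininogen, and Agt, angiotensinogen, fell by 3.69 and 3.54, and Esm1, a secreted proteoglycan, by 3.82. The annotated span of Esm1 overlaps that of Gzmk, so some reads may belong to either gene, and the same limit holds for Kng2 and Gm6493. All of these calls held when any single library was left out.

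Genes of mature adipocytes did not fall as a list. Of 25 listed, 13 passed the filter on low counts, and of these Cfd (complement factor D, or adipsin) fell by 3.11 on the log2 scale (SE 0.86, adjusted p = 0.02078), a call lost without no-DT replicate 4 or without any of 2-day replicates 2, 3 and 4. A pair of lipid enzymes moved the other way. Pnpla2, the triglyceride lipase, read 14.4 to 25.5 CPM without DT and 35.6 to 46.4 CPM after 2 days (log2 0.96, SE 0.19, adjusted p = 0.001228). Dgat2, which makes triglyceride, read 10.1 to 12.9 CPM and then 21.2 to 31.9 CPM (log2 1.11, SE 0.19, adjusted p = 0.0002347). Neither gene is specific to adipocytes.

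**Figure D2:**
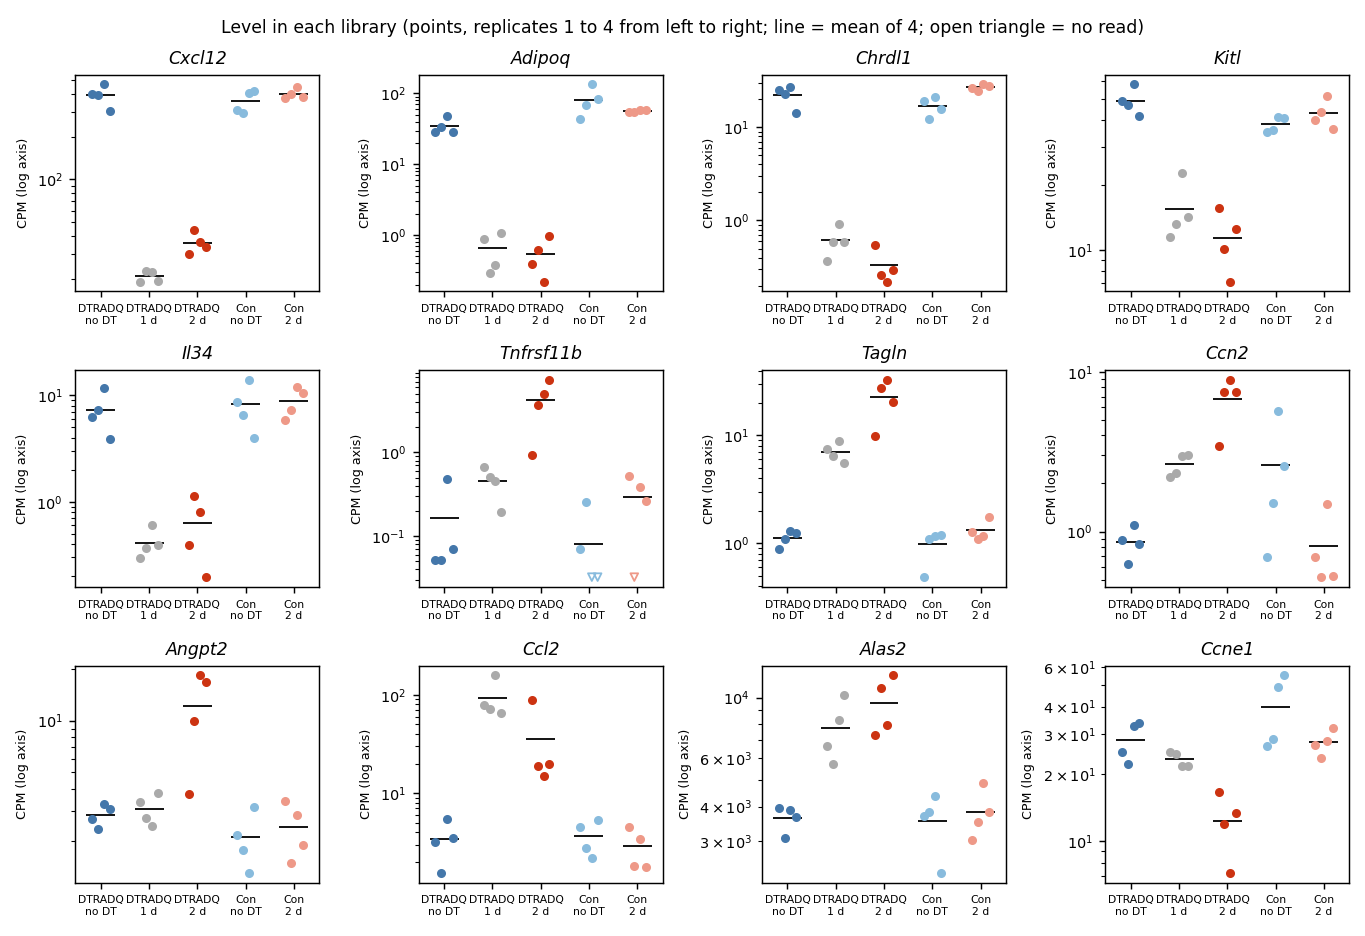
CPM (log axis) of 12 genes in each library of DTRADQ without DT, after 1 and 2 days, and of Con without DT and after 2 days, with a line at the mean of 4 libraries and an open triangle for a library with no read. Cxcl12, Adipoq, Chrdl1, Kitl and Il34 lie below the untreated range in every DTRADQ library at both days, and Tagln, Ccn2, Ccl2, Tnfrsf11b and Alas2 lie above it after 2 days.

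Genes of secreted BMP antagonists fell along with the stromal genes. Of 8 tested, 4 fell: Chrdl1, Grem1, Bmper and Fstl1. Chrdl1, chordin-like 1, read 25.2, 22.9, 26.9 and 14.4 CPM without DT and 0.545, 0.262, 0.221 and 0.294 CPM after 2 days (log2 -6.04, SE 0.32, adjusted p = 1.276e-14), the largest fall by the naming rule. Grem1, gremlin 1, read 8.92, 7.87, 12.2 and 8.18 CPM without DT. After 2 days no read was found in replicates 2 and 3, and replicates 1 and 4 read 0.312 and 0.489 CPM (log2 -5.56, SE 0.47, adjusted p = 4.853e-10). Bmper was left with 1 read over the 4 treated libraries against 51 over the untreated ones.

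Ligands of the BMP family fell too. Among 17 tested ligands, receptors and targets, Bmp4, Bmp5, Bmp6, Gdf10 and the target Id4 fell, and Id1 rose (log2 0.71, adjusted p = 0.01078), a call lost without no-DT replicate 4 or 2-day replicate 3. Bmp4 read 4.3, 2.9, 2.67 and 2.63 CPM without DT and 0.467, 0.699, 1.32 and 0.392 CPM after 2 days (log2 -2.08, SE 0.36, adjusted p = 0.000301). In Con, Bmp4 fell as well, by 1.03, and its difference between genotypes did not pass. Bmp6 fell from 1.09 to 1.66 CPM to at most 0.262 CPM (log2 -3.18, SE 0.60, adjusted p = 0.0008418). The WNT inhibitors Sfrp4 and Sfrp1, secreted decoys for WNT ligands, fell by 4.49 and 2.71, and the other 6 tested members of their list did not pass. In the EGF receptor list, 1 of 13 passed: Egfr read 3.01, 1.45, 2.67 and 2.29 CPM without DT and 0.935, 0.787, 0.736 and 0 CPM after 2 days (log2 -1.88, SE 0.43, adjusted p = 0.005753), and it overlaps Egfros. Hbegf, the mouse gene for heparin-binding EGF-like growth factor, did not pass, with 1.59 to 3.22 CPM and then 0.545 to 2.84 CPM (log2 -0.56, SE 0.38).

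The regulators of osteoclasts diverged. Il34, a ligand of the CSF1 receptor, read 6.27, 7.2, 11.7 and 3.88 CPM without DT and 0.39, 1.14, 0.809 and 0.196 CPM after 2 days (log2 -3.48, SE 0.45, adjusted p = 2.585e-06). Tnfrsf11b, which encodes osteoprotegerin, the decoy that blocks RANKL (chromosome 15, 54250619 to 54278484), read 0.0518, 0.0518, 0.479 and 0.0693 CPM without DT. After 2 days it read 0.935, 3.67, 5 and 7.34 CPM. Its log2 change was 4.73 (SE 0.67, adjusted p = 1.432e-05), with 2-day replicate 1 nearest to the untreated libraries. Csf1 had a log2 difference of 0.27 (SE 0.20) and did not pass. Of 11 osteoclast genes, Mmp9 and Tcirg1, a subunit of the osteoclast proton pump, rose by 0.73 and 0.72, and Mmp9, also an abundant neutrophil gene, did not pass without no-DT replicate 3 or 4 or 2-day replicate 3.

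Genes of osteoblasts and osteocytes moved in both directions. Of 21 tested, Ibsp and Phex fell and Postn, Alpl and Spp1 rose. Ibsp, bone sialoprotein, read 141, 143, 237 and 175 CPM without DT and 33.5, 37.3, 34 and 58.9 CPM after 2 days (log2 -2.09, SE 0.29, adjusted p = 1.04e-05). Postn, periostin, read 3.16, 1.81, 3.83 and 3.05 CPM and then 6.54, 15, 11.3 and 11.5 CPM (log2 1.91, SE 0.27, adjusted p = 1.56e-05). Alpl, alkaline phosphatase, rose by 1.01 (SE 0.21, adjusted p = 0.001943), from 3.47 to 5.06 CPM to 6 to 11 CPM. Spp1, osteopontin, overlapped between the groups and rose by 1.06 (SE 0.27, adjusted p = 0.0128), a call lost without no-DT replicate 2 or 2-day replicate 4. Phex, an endopeptidase of osteocytes, fell by 2.50 (SE 0.62, adjusted p = 0.01015) and did not pass without 2-day replicate 3.

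Col1a1, the main collagen of bone, did not pass and its direction depended on a library. It read 28.6, 35.7, 43.6 and 219 CPM without DT and 21.3, 56.5, 83.3 and 85.7 CPM after 2 days, a log2 difference of -0.40 (SE 0.47) with all 8 libraries and 0.78 without no-DT replicate 4. Bglap, osteocalcin, read 2.54, 3.52, 3.22 and 21.4 CPM without DT and 1.31 to 5 CPM after 2 days (log2 -1.38, SE 0.54), did not pass, and may share reads with Bglap2. Sp7, the osteoblast transcription factor osterix, read at most 1.32 CPM in any of the 8 libraries and did not pass. Among 15 collagen chains, Col12a1 and Col6a3 rose and Col6a1 and Col5a1 fell. Without 2-day replicate 2 or 3 neither rise passed, and without no-DT replicate 3 neither fall passed.

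Small leucine-rich proteoglycans of the matrix fell. Of 9 tested, Ogn, Prelp, Dcn and Omd fell, and the same number passed with any library left out. Dcn, decorin, read 17.9, 14.1, 19.8 and 22.6 CPM without DT and 7.87, 6.55, 7.5 and 6.95 CPM after 2 days (log2 -1.36, SE 0.22, adjusted p = 0.000107). Ogn, osteoglycin, fell by 1.96 (SE 0.23, adjusted p = 7.132e-07), and it overlaps Cenpp in the annotation. Components of the complement system fell as well: 8 of 17 tested were lower, and Serping1, the C1 inhibitor, had the smallest p of them. Serping1 read 90.2, 84.7, 129 and 69.1 CPM without DT and 9.04, 8.74, 7.87 and 8.22 CPM after 2 days (log2 -3.46, SE 0.21, adjusted p = 1.906e-13). C1s1, a protease of the C1 complex, fell by 3.72, while C1qb, C3 and Cfp rose by 0.69, 0.53 and 0.44. None of these 3 rises passed without no-DT replicate 4 or without 2-day replicate 2 or 3. Of 11 IGF genes, Igfbp5, Pappa, Igfbp4 and Igf1 fell and Igf1r rose, the last a call lost without no-DT replicate 4 and that of Igf1 lost without no-DT replicate 3 or 2-day replicate 2 or 3.

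**Figure D3:**
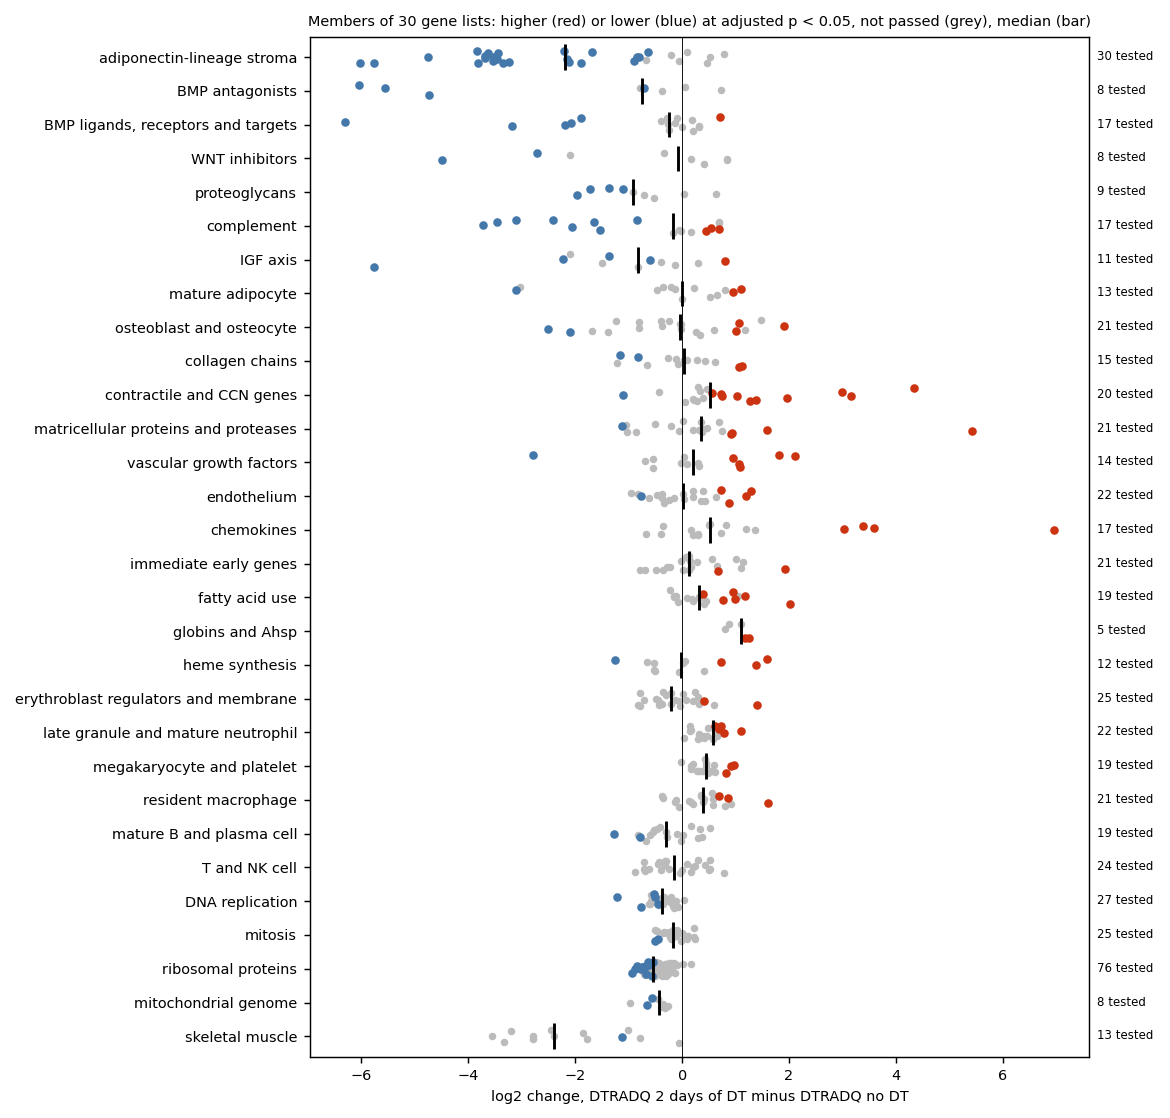
Log2 change of each tested member of 30 gene lists in DTRADQ after 2 days of DT against no DT, in red or blue where edgeR's adjusted p was under 0.05, in grey otherwise, with a bar at the list's median. The stromal list has 23 of 30 lower, and the contractile and CCN genes hold 10 of 20 higher.

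Contractile and matricellular genes rose. Of 20 tested genes for actin-based contraction and for the CCN family of secreted matrix proteins, 10 rose and 1 fell, with a median log2 change of 0.52. The number higher ran from 7, without no-DT replicate 4, to 13, without 2-day replicate 1. Tagln, transgelin, an actin-binding protein of smooth muscle and activated stromal cells (chromosome 9, 45929628 to 45936058), read 0.881, 1.09, 1.3 and 1.25 CPM without DT. After 2 days it read 9.89, 27.4, 32.7 and 20.7 CPM, all above the untreated range, with replicate 1 the lowest. Its log2 change of 4.33 (SE 0.31, adjusted p = 7.536e-12) was the largest rise by the naming rule. Tagln overlaps Pcsk7 in the annotation.

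Ccn1, which encodes a matricellular protein, read 0.57, 1.04, 1.44 and 1.94 CPM without DT and 9.43, 11.1, 11.8 and 11.7 CPM after 2 days (log2 3.17, SE 0.36, adjusted p = 2.589e-07). Ccn2, also known as connective tissue growth factor, read 0.881, 0.621, 1.09 and 0.832 CPM and then 3.43, 7.43, 8.9 and 7.44 CPM (log2 2.99, SE 0.39, adjusted p = 4.147e-06). Its treated libraries all lay above the untreated ones, and replicate 1 was again the lowest. Acta2, smooth muscle actin, overlapped between the groups because replicate 1 read 19 CPM, while replicates 2 to 4 read 47.8 to 59.5 CPM against 9.22 to 24.5 CPM without DT (log2 1.38, SE 0.35, adjusted p = 0.01243), and the call was lost without no-DT replicate 4. Vcl, vinculin, Flna, filamin A, and Cnn2, calponin 2, which are broadly expressed, rose by 0.75, 0.72 and 0.56, and of these Flna held with any library left out. Ccn5 fell by 1.11 (SE 0.29, adjusted p = 0.01294), a call lost without 2-day replicate 1. The 4 smooth muscle markers summed to 11.1 to 27 CPM without DT and to 29.1, 88, 90.9 and 69 CPM after 2 days. That sum was mostly Acta2 and Tagln, and the other markers, Cnn1 and Myh11, overlapped between the groups. Cnn1 read 0.137 to 0.414 CPM without DT and 0 to 0.489 CPM after 2 days. Myh11 read 0.347 to 1.09 CPM and then 0.0779 to 1.14 CPM. The share of smooth muscle cells in these changes was not tested.

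Of 21 matricellular proteins and proteases tested, 4 rose, among them Timp1, Mmp19 and Thbs1, and Fbn1 fell. Tubb6, a tubulin, rose from 5.68 to 8.08 CPM to 11.7 to 27.9 CPM (log2 1.65, SE 0.26, adjusted p = 6.297e-05).

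Serum response factor, a regulator of contractile and immediate early genes, binds the CArG box. Promoters of 300 bases, 250 before the start site and 50 after it, were taken from RefSeq for GRCm38.p6, and 1.806% of the 27025 genes with one held a CArG box, searched on both strands. Of the contractile and CCN list, 17 genes had a promoter in the table and 3 held the motif (Cnn2, Myl9 and Vcl), and of 20 immediate early genes 3 did (Egr2, Srf and Zfp36). Of the 13 members of both lists that changed, 7 had a promoter there, and 3 held the motif. The promoters of Cnn2 and Vcl are shown because these are the 2 contractile genes that rose and hold it, with the motif in capitals. Both are on the plus strand, Cnn2 at chr10:79988350-79988649 with the motif beginning 56 bases before the start site, and Vcl at chr14:20929148-20929447 with it beginning 227 bases before.
Cnn2: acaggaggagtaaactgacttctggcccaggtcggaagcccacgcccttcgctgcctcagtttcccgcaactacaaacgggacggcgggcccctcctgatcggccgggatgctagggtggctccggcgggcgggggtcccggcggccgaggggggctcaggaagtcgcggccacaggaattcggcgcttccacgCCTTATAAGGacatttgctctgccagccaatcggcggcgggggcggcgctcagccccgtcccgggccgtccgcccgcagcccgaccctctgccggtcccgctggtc
Vcl: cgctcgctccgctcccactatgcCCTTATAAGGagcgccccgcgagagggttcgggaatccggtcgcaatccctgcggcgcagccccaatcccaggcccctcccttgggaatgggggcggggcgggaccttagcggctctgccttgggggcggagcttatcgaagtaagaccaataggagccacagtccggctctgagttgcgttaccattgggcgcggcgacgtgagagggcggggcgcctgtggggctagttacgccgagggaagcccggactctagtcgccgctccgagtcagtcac
Both promoters hold the same 10 letters of the motif. A match describes the letters in the window, and Tagln, Ccn1 and Ccn2, which rose most, have no entry in the table.

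Chemokines rose, with 4 of 17 tested higher: Ccl2, Ccl7, Cxcl1 and Cxcl2. Ccl2, which draws monocytes, read 3.16, 1.55, 5.47 and 3.47 CPM without DT and 87.9, 18.8, 14.9 and 19.6 CPM after 2 days (log2 3.39, SE 0.50, adjusted p = 2.853e-05). All treated libraries were higher, and 2-day replicate 1 lay far above the other 3. Ccl7, a neighbour of Ccl2 with a like function, was more even, at 0.57, 0.259, 0.41 and 0.416 CPM and then 6.93, 4.98, 3.83 and 4.5 CPM (log2 3.59, SE 0.45, adjusted p = 1.575e-06). Cxcl1, a neutrophil attractant, read 73.1 CPM in 2-day replicate 1 and 0.524 to 1.55 CPM in the other 3, against at most 0.156 CPM without DT, and it did not pass without that library. The immediate early gene Egr2 read 5.69 CPM in that same library and 1.27 to 1.49 CPM in the others, against 0.414 to 1.04 CPM without DT (log2 1.93, SE 0.54, adjusted p = 0.02071), and its call was lost without that library or without no-DT replicate 2, 3 or 4. Egr2 and Ier2 were the 2 of 21 immediate early genes that rose, and without no-DT replicate 4 neither passed.

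Growth factors for vessels changed in composition. Of 14 tested, Angpt2, Apln, Pdgfa, Pdgfc and Angptl4 rose and Vegfc fell. Angpt2, angiopoietin 2, which loosens vessel walls, read 2.7, 2.33, 3.28 and 3.05 CPM without DT and 3.74, 9.96, 18.3 and 16.7 CPM after 2 days (log2 2.10, SE 0.35, adjusted p = 0.0001969). Replicate 1 lay just above the untreated range and the other 3 well above it. Angpt2 lies within Mcph1 in the annotation. Vegfc, the lymphatic growth factor, fell from 1.56 to 2.8 CPM to at most 0.437 CPM (log2 -2.79, SE 0.53, adjusted p = 0.0008444). Without no-DT replicate 3, or without 2-day replicate 2, only 2 of the list's rises passed. Of 22 endothelial genes, Robo4, Emcn, Ecscr and Egfl7 rose and Kdr, the main VEGF receptor, fell, the last a call that held without no-DT replicate 1 or 2-day replicate 2 alone. Robo4 read 3.11, 2.38, 2.33 and 2.08 CPM and then 4.05, 6.9, 5 and 8.42 CPM (log2 1.28, SE 0.25, adjusted p = 0.001337). The number of endothelial rises was 2 without no-DT replicate 2 or 4 or 2-day replicate 2 or 3. The 4 endothelial markers summed to 71 to 88.9 CPM without DT and to 93.7 to 123 CPM after 2 days, which did not overlap. Pecam1 made up most of the sum, with 44.15 to 67.73 CPM and then 72.43 to 88.35 CPM. Emcn was higher in all but 2-day replicate 1. Cdh5 did not rise, with 6.37 to 9.44 CPM and then 6.31 to 9.1 CPM, and Kdr was lower, with 7.72 to 9.78 CPM and then 3.04 to 7.43 CPM.

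Some late genes of red cells were higher, while the 12 heme synthesis genes tested had a median log2 change of -0.02. Of these 12, 3 rose and 1 fell, and at an unadjusted p under 0.05 3 were higher and 4 lower. Alas2, the first enzyme of heme synthesis in red cells, read 3967, 3083, 3881 and 3663 CPM without DT and 7282, 10860, 7925 and 12050 CPM after 2 days (log2 1.39, SE 0.23, adjusted p = 0.0002177). It overlaps Apex2. Fech, the last enzyme of heme synthesis, rose by 1.59 (SE 0.29, adjusted p = 0.0006838), and Slc25a39, a mitochondrial carrier needed for heme, by 2.06 (SE 0.25, adjusted p = 1.203e-06). Hba-a1 and Hba-a2, the alpha globins, which may share reads, rose by 1.18 and 1.25, the former a call lost without no-DT replicate 2 or 2-day replicate 2 or 4. All 5 tested genes of the list of globins and their chaperone Ahsp had libraries that did not overlap, beside 20.8% of all genes. The 3 besides the alpha globins did not pass. Cpox, an earlier step of heme synthesis, fell by 1.26 (SE 0.32, adjusted p = 0.0114), a call lost without no-DT replicate 4 or 2-day replicate 3.

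Erythroblast regulators and membrane genes did not rise with them as a list. Of 25 erythroblast regulators and membrane genes, Epb41, a protein of the red cell skeleton, rose by 1.39 (SE 0.25, adjusted p = 0.0004325) and Nfe2 by 0.41, a call lost without no-DT replicate 2, 3 or 4, and the list's median was -0.21. Tfrc, the transferrin receptor of dividing erythroblasts, read 262 to 399 CPM without DT and 427, 207, 124 and 290 CPM after 2 days (log2 -0.41, SE 0.26, adjusted p = 0.3293). Its treated libraries spread on both sides of the untreated range, with replicate 3 the lowest and replicate 1 the highest. The summed level of 4 erythroid markers was lowest in the same replicate 3, at 2152 CPM, and ran from 3707 to 5091 CPM in the other 3, against 2820 to 4187 CPM without DT.

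Neutrophil genes leaned upwards, and how many passed rested on the libraries in the model. Of 22 late granule and mature neutrophil genes, 14 had libraries that did not overlap, beside 20.8% of all genes, and the median log2 change was 0.58. In this list 5 rose, beside 4.27% of all genes: Mmp25, Padi4, Mmp9, Itgam and Lcn2. Without no-DT replicate 4 or without 2-day replicate 3 no member passed, and without no-DT replicate 3 1 did, while 12 had an unadjusted p under 0.05 and DESeq2 called 6. Without Con no-DT replicates 3 and 4, 13 passed. Mmp25, a membrane protease of neutrophils, read 56.7, 62.1, 44.1 and 35.2 CPM and then 95.6, 101, 144 and 83.7 CPM (log2 1.10, SE 0.28, adjusted p = 0.01125). Cebpe, the transcription factor of secondary granules, rose by 0.75 (SE 0.18, adjusted p = 0.009802), a call lost without 2-day replicate 3. The abundant S100a8 differed by 0.03 on the log2 scale (SE 0.28) and S100a9 by 0.15 (SE 0.26). The 6 neutrophil markers summed to 21180 to 22550 CPM without DT and to 27310 to 35900 CPM after 2 days.

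Among the other lineages, Ms4a6c and Ms4a4c of the monocyte list fell by 0.74 and 1.00, calls that were lost without no-DT replicate 4. Of 21 macrophage genes, Vsig4, C1qb and Timd4 rose, and without 2-day replicate 2 or 4 no member passed, where 7 had an unadjusted p under 0.05 with all libraries and DESeq2 called 5. Of 19 megakaryocyte genes, Itga2b, the platelet integrin, rose by 0.97 (SE 0.19, adjusted p = 0.001236), with Thbs1 and Mpig6b. This count was 8 without 2-day replicate 1, and 2 without no-DT replicate 4 or without 2-day replicate 2. Among B lineage genes, Dntt, the terminal transferase of early B cell precursors, read 31.7 to 49.7 CPM without DT and 43.5, 17.7, 13.8 and 11.8 CPM after 2 days (log2 -0.94, SE 0.27, adjusted p = 0.02674). Replicate 1 stayed within the untreated range, and the call was lost without no-DT replicate 3 or 4 or 2-day replicate 2, 3 or 4. In the list of 24 T and NK cell genes edgeR called 0, with 4 at an unadjusted p under 0.05 and 1 called by DESeq2.

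Genes of DNA replication were lower. Of 27 tested, 5 fell, with a median of -0.38, among them Ccne1, Gins1, E2f1 and Mcm10. Ccne1, cyclin E1, which starts S phase, read 25, 22, 32.9 and 33.9 CPM without DT and 16.6, 12, 7.21 and 13.3 CPM after 2 days (log2 -1.21, SE 0.21, adjusted p = 0.0003366). Its groups did not overlap. The number of the list's falls was 2 without no-DT replicate 3 or 4 or 2-day replicate 2 or 3, 3 without 2-day replicate 4, and 9 without 2-day replicate 1. Mki67, the proliferation marker, read 564 to 818 CPM and then 396 to 660 CPM (log2 -0.36, SE 0.18, adjusted p = 0.2013). Cdkn1a, the p53 target that stops the cycle, did not pass (log2 0.29, SE 0.18). Gdf15, another p53 target and a stress hormone, rose by 3.57 (SE 0.81, adjusted p = 0.005613), from at most 0.155 CPM to 0.701, 1.66, 2.06 and 1.57 CPM.

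Genes of fatty acid use rose, 6 of 19 tested, among them Acot1, an acyl-CoA thioesterase, Cpt1a, the gate of fatty acid entry into mitochondria, and Plin2, a lipid droplet coat. Cpt1a read 49.9, 39.9, 44.5 and 32.9 CPM without DT and 73.5, 69.5, 72.2 and 68.2 CPM after 2 days (log2 0.76, SE 0.15, adjusted p = 0.001125). The number of rises ran from 4 to 6 when single libraries were left out. Ribosomal protein genes lay lower, as they did in Con, with 12 of 76 called in DTRADQ and a median of -0.55. That count fell to 9 or fewer without any library but no-DT replicate 1, down to 0 without 2-day replicate 3, and reached 50 without Con no-DT replicates 3 and 4, while 46 had an unadjusted p under 0.05 and DESeq2 called 20. All 8 tested genes of the mitochondrial genome had libraries that did not overlap, beside 20.8% of all genes. Of the 8, mt-Nd1 and mt-Nd2 fell by 0.56 and 0.65, and without no-DT replicate 4 neither passed. The share of all counts on the mitochondrial genome was 2.58% to 3.19% without DT and 1.51% to 1.83% after 2 days, and the share of the 10 most counted genes was 22.8% to 24.8% and 25.1% to 30.2%. The part of RNA quality in these shifts was not tested.

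In mice without Cre, many genes also differed between toxin and none. The 10 most counted genes held 22.7%, 28.6%, 37.4% and 50.7% of counts in Con no-DT replicates 1 to 4. After 2 days in Con they held 19.4% to 22%. How far the toxin accounts for the difference in Con was not tested. In Con mice, 4109 genes differed between 2 days of DT and no DT (28.3%). The count was 2927 without Con no-DT replicates 3 and 4 and 646 in a model of these 8 libraries alone. The Con and DTRADQ comparisons share no library. Of all genes tested, 13.8% rose and 14.4% fell in Con. Of the genes that rose in DTRADQ, 191 (30.8%) also rose in Con, which is 9.5% of the genes that rose in Con. Of those that fell in DTRADQ, 213 (30.3%) also fell in Con, which is 10.2% of the falls there. Without Con no-DT replicates 3 and 4 these overlaps were 141 (22.7%) and 113 (16.1%) of the DTRADQ rises and falls. In that setting 1366 of the 14527 genes tested rose in Con and 1561 fell.

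The change in DTRADQ differed from that in Con (the genotype by DT interaction) for 1613 genes (11.1%), 904 with the DTRADQ change above that in Con (6.22%) and 709 below it (4.88%). That number was 3749 without Con no-DT replicate 1 and 356 in a model of these 4 groups alone. With all libraries, 130 of the 620 rises and 201 of the 704 falls were among the 1613 with the same sign. Without Con no-DT replicates 3 and 4, 1881 genes differed, and 135 of the rises and 336 of the falls were among them. Stromal genes made up 18 of the 201 falls. Adipoq changed by -5.49 more in DTRADQ (SE 0.47, adjusted p = 1.42e-09), and Chrdl1, which rose by 0.66 in Con, by -6.70 more (SE 0.40, adjusted p = 1.893e-13). Tagln changed by 3.80 more (SE 0.55, adjusted p = 4.185e-05) and Ccl2 by 3.72 more (SE 0.75, adjusted p = 0.001788). Angpt2, Postn, Robo4, Emcn and Alas2 also passed, with 1.86, 1.54, 1.63, 1.37 and 1.28, and all of these genes passed without Con no-DT replicates 3 and 4. For Tnfrsf11b the difference was 3.28 (SE 1.69, adjusted p = 0.21) and did not pass.

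For some genes the excess in DTRADQ rested on the same control libraries. Hba-a1 read 11360, 16220, 34670 and 60330 CPM in Con without DT and 8762 to 12270 CPM in Con after 2 days, so that its interaction was 2.80 with all libraries and 1.65 without Con no-DT replicates 3 and 4 (adjusted p = 0.0002849 and 0.001056). Fech passed with all libraries (1.37, adjusted p = 0.02711) and not without those 2 (0.50, adjusted p = 0.3442), and Slc25a39 likewise (1.29 and 0.86).

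Other genes moved in both genotypes. Gdf15 rose by 3.65 in Con (SE 0.90, adjusted p = 0.002547), and its difference between genotypes was -0.08 with a wide SE of 1.65. Pnpla2 rose by 0.87 in Con and by 0.96 in DTRADQ, a difference of 0.09 (SE 0.27, adjusted p = 0.8736). Plk2, another p53 target, rose by 1.31 in Con and 1.10 in DTRADQ, and Tcirg1 by 0.82 and 0.72. Bmp4, Ms4a6c, Birc5 and Nupr1 fell in Con by 1.03, 0.89, 0.62 and 0.91, and Itga2b and Oas3 rose there by 0.68 and 0.75. The difference between genotypes passed for none of them. Without Con no-DT replicates 3 and 4 the change of Bmp4 in Con was -0.99 and did not pass. Igfbp4 fell by 1.21 in Con and 1.38 in DTRADQ, but read 130 and 132 CPM in Con no-DT replicates 3 and 4 against 43.5 and 55.6 CPM in replicates 1 and 2. Without replicates 3 and 4 its change in Con was -0.34, which did not pass, and its difference between genotypes was -1.02 (adjusted p = 0.01574). mt-Nd2 fell by 0.92 in Con and by 0.65 in DTRADQ. Of the 76 ribosomal protein genes, 58 fell and 1 rose in Con, with a median of -1.16, and the difference between genotypes passed with the DTRADQ change above that in Con for 22 and below it for 1. Without Con no-DT replicates 3 and 4, 48 fell in Con with a median of -0.61, and the difference passed with the DTRADQ change above that in Con for 2 and below it for 3.

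**Figure D4:**
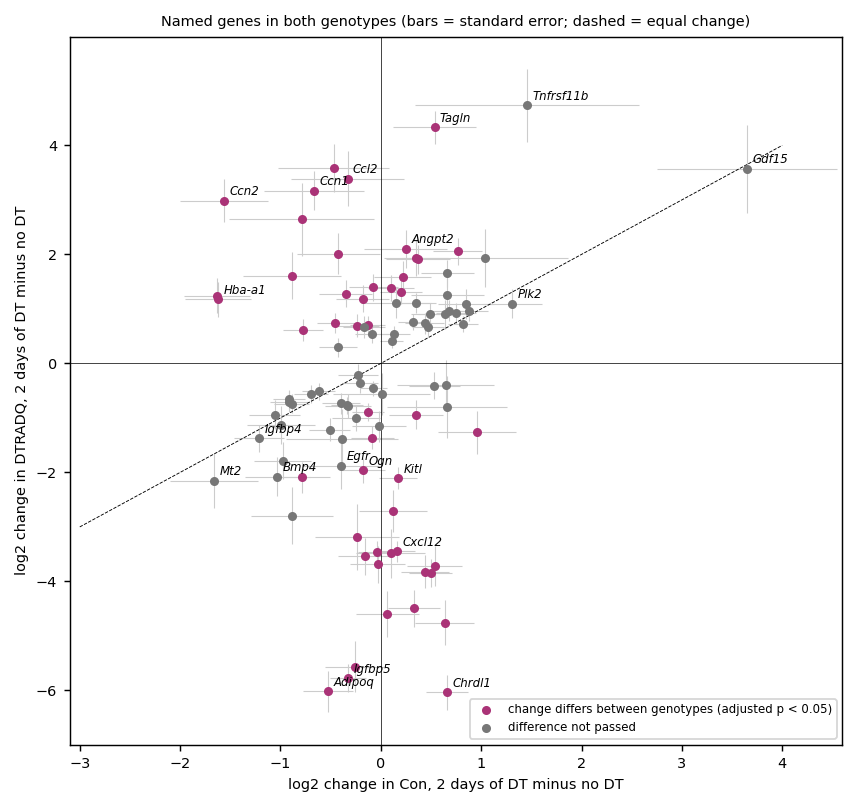
Log2 change after 2 days of DT in DTRADQ (vertical) against that in Con (horizontal) for 98 of the named genes, with bars of 1 standard error, purple where the difference between genotypes passed and grey where it did not. Stromal genes such as Chrdl1, Adipoq and Cxcl12 lie far below 0 in DTRADQ and between -0.53 and 0.66 in Con, where Chrdl1 rose, while Gdf15, Pnpla2 and Plk2 lie near the dashed line of equal change.

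A small set of genes differed between the first and the second day of toxin. Between 1 and 2 days in DTRADQ, 114 genes differed (0.785%), 59 higher (0.406%) and 55 lower (0.379%). This count was 494 without Con no-DT replicates 3 and 4 and ran from 9 (without 2-day replicate 2) to 42 when 1 of the 8 libraries other than 2-day replicate 1 was left out, and was 483 without that one. A model of these 8 libraries called 0 with edgeR, where 2495 genes had an unadjusted p under 0.05, and DESeq2 on all groups called 306. Of the 114 genes, 47 were also called at 2 days against no DT and 67 were not. Tagln read 7.43, 6.49, 8.83 and 5.53 CPM at day 1, between the untreated and the 2-day libraries, and rose by a further 1.68 on the log2 scale (adjusted p = 0.0009293). Angpt2 read 2.44 to 3.78 CPM at day 1, within or next to the untreated range, and rose by 1.99 between the days (adjusted p = 0.006799). Postn (1.58) and Tnfrsf11b (3.15) rose from day 1 as well, as did Col12a1 (1.62) and Tubb6 (1.27). The calls of Tagln and Postn held with each of the 8 libraries left out, that of Angpt2 was lost without 2-day replicate 3, and that of Tnfrsf11b was lost without 1-day replicate 4 or 2-day replicate 4. That of Col12a1 held in 5 of the 8 runs with a library left out and that of Tubb6 in 3. Among the rises were 4 of 21 osteoblast and osteocyte genes and 3 of 15 collagen chains.

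Stromal transcripts were already low at day 1, with a median log2 change of -3.43 against no DT over the stromal list. Cxcl12 read 19.1, 22.5, 22.3 and 19.3 CPM at day 1, below all 2-day libraries, and was 0.78 higher on day 2 (adjusted p = 0.03887). For Adipoq the difference between the days was -0.27 (adjusted p = 0.9167), with 0.292 to 1.07 CPM at day 1, and for Kitl it was -0.45 (adjusted p = 0.3558). Ccl2 read 79.3, 72.6, 157 and 64.6 CPM at day 1, so that 2-day replicate 1, at 87.9 CPM, lay in the day-1 range and the other 3 below it. The same library lay at or near the day-1 range for Tagln, Angpt2, Egr2 and Tnfrsf11b. Falls from day 1 to day 2 included Ccne1 (-0.93, adjusted p = 0.03863), which read 21.7 to 25.1 CPM at day 1, and Birc5, a gene of mitosis, which fell by 0.72 (adjusted p = 0.03863). Of the 8 runs with a library left out, the calls of Cxcl12, Ccne1 and Birc5 held in the 1 without 2-day replicate 1. Against no DT, the log2 values at 3 days were 5.69 for Tagln, 3.35 for Postn, 2.88 for Angpt2, -3.92 for Cxcl12 and -1.81 for Ccne1, beside 4.33, 1.91, 2.10, -3.45 and -1.21 at 2 days. The 3 time points share their untreated libraries, and the day-3 libraries carry another lane label.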

How the data were processed

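Per the file headers, the authors deposited raw read counts per gene for each library, and these were used here. The build GRCm38 and the tools STAR 2.0.4b, featureCounts 1.45, Subread and bcl2fastq appear in the submitters' processing notes. Libraries came from total RNA with Clontech SMARTer v1, per the labels. No source used here gives the annotation release, the strand setting or the handling of multiply mapped reads, so genes with shared reads or an overlapping neighbour are uncertain.

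Of 41388 genes, 14527 passed filterByExpr of edgeR 4.0.16 (R 4.3.3, minimum count 10). All 32 libraries, of 8.97 to 22.93 M counts, entered a single TMM-scaled quasi-likelihood fit with 8 group means. Two-sided p-values were adjusted by Benjamini-Hochberg over all genes in each contrast, at 0.05. SEs were obtained from the log2 change and its F statistic. Levels are TMM-scaled counts per M counts (CPM). The series' design gives 4 mice a group. The procedure was tested on simulated data.

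Alternatives were DESeq2 1.42.0, its size factors in edgeR, no count filter, voom of limma 3.58.1 with library weights, the replicate number as a block, fewer groups, and libraries left out. Named genes were of 3 kinds, 99 in all. The first were the 10 top rises and 10 top falls of genes that passed, averaged a log2 CPM of 1 or more over the 8 libraries and did not overlap between groups. The second were up to 2 members of each of 47 lists that passed with the smallest p. The third were 16 fixed genes. Other list members are named after their values were seen. The members and lists were chosen with earlier results of these data known. Some named genes are not reported here. Of 912 distinct list genes, 803 were tested. Promoter sequences are from RefSeq, on GRCm38.p6.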

Additional observations from a re-analysis of the deposited data

Results flagged for a closer look

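In 12 of 194 groups of 4 libraries examined, 1 library lay far from the other 3, where chance flags about 1 in 20 groups. DTRADQ no-DT replicate 4 was the far one for Col1a1 (219 CPM), Bglap (21.4 CPM), Slc15a2 (7.97 CPM), Col12a1 (5.06 CPM) and Cdkn1c (3.26 CPM). No-DT replicate 3 was so for Col6a1 (9.03 CPM) and Tnfrsf11b (0.479 CPM), and no-DT replicate 1 for Bmp4 (4.3 CPM). After 2 days, replicate 1 was the far one for Ccl2 (87.9 CPM) and Egr2 (5.69 CPM), replicate 4 for Ibsp (58.9 CPM) and replicate 2 for the muscle gene Tnni2 (7.95 CPM). All 12 were above their group.

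For 48 of the named genes the log2 change after 2 days of DT differed between DTRADQ and Con by the genotype by DT test (edgeR, adjusted p under 0.05), and 43 of these passed without Con no-DT replicates 3 and 4. The values that follow are the change in DTRADQ minus the change in Con. Among stromal genes and other genes that fell in DTRADQ they were Adipoq -5.49, Igfbp5 -5.45, Gdpd2 -5.39, Lepr -4.34, Esm1 -4.26, Kng2 -3.66, Cxcl12 -3.61, Serping1 -3.42, Agt -3.38, Kitl -2.28, Pdgfrb -0.77. Among secreted inhibitors and ligands they were Chrdl1 -6.70, Grem1 -5.30, Sfrp4 -4.82, Il34 -3.58, Bmp6 -2.95, Sfrp1 -2.83. Among matrix, bone, complement and peptidase genes they were Dpep1 -4.66, C1s1 -4.26, Ogn -1.79, Ibsp -1.30, Dcn -1.28. The B lineage genes Cr2 -2.22 and Dntt -1.29 complete the negative differences.

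Among contractile, CCN, chemokine and matrix genes the differences were Ccn2 4.55, Ccl7 4.06, Ccn1 3.83, Tagln 3.80, Ccl2 3.72, Postn 1.54. The peptide transporter Slc15a2 gave 1.58. Red cell genes gave Hba-a2 2.88, Hba-a1 2.80, Epb41 1.47, Fech 1.37, Slc25a39 1.29, Alas2 1.28. Vessel genes gave Angpt2 1.86, Robo4 1.63, Emcn 1.37, and genes of granulocytes, macrophages and interferon gave Vsig4 2.49, Lcn2 1.40, Cebpe 1.20, Rsad2 1.10, C1qb 0.93. The remaining 3 were Igkv2-112 3.44, Acot1 2.44, Mvd 0.83, for an immunoglobulin segment, a thioesterase and a sterol enzyme. C1qb, Dntt, Fech, Mvd and Slc25a39 are the 5 that did not pass without Con no-DT replicates 3 and 4.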

How the results depend on the processing

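The 1324 genes called between 2 days and no DT (620 higher, 704 lower) became 2977 with voom (1374 and 1603), 2192 in a model of only these groups (1078 and 1114), 3136 with only the 4 DTRADQ groups (1565 and 1571) and 2960 without Con no-DT replicates 3 and 4 (1391 and 1569). All 1324 were among the 2960. Leaving out single libraries gave 545 to 1302 genes, 246 to 697 higher and 299 to 667 lower. DESeq2 called 1724, DESeq2 size factors within edgeR 1317, and no count filter 1112. The 4109 genes of Con became 646 with only their groups and 2825 to 5868 with a library left out. The 1613 genes of the genotype by DT comparison became 3373 with voom, 356 with only its groups and 1136 to 3749 with a library left out. The 114 genes between days 1 and 2 became 306 with DESeq2, 951 with voom, 0 with only their groups, 427 with the 4 DTRADQ groups, 494 without Con no-DT replicates 3 and 4 and 9 to 483 with a library left out.

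Col1a1, which did not pass, turned from -0.40 on the log2 scale to 0.27 with voom and to 0.78 without no-DT replicate 4, where leaving out single libraries gave -0.69 to 0.78. The cause was not tested. Of the 91 named genes that passed, 60 passed in every setting and with each library left out. Same-numbered 2-day and no-DT libraries did not deviate together (correlations of 0.056, -0.051, -0.063 and 0.097), and the labels do not explain the numbers. With the replicate number as a block, 1564 genes were called, 4349 in Con, 1884 for genotype by DT and 129 between days.

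Genes under 1 CPM rest on few reads per library. The p-values rest on the spread between mice within groups, estimated over all 8 groups of 4 and not only the groups compared.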

Other observations

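Ranked by the same rule, the 10 falls after the named ones, chosen after their values were seen, were Kng1, Il34, Serping1, Cxcl12, Gas6, Ms4a4d, Lmo7, C4b, Islr and Pappa. Gas6, a ligand of the receptors by which macrophages take up dead cells, read 9.29 to 16.2 CPM without DT and 0.857 to 1.4 CPM after 2 days. It fell by 3.35 on the log2 scale (SE 0.31, adjusted p = 5.885e-09, edgeR). Islr fell by 2.27 (SE 0.25, adjusted p = 1.813e-07), with no overlap between groups. Both calls held with each library left out.

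The next 10 rises included Fech, Tent5c, Igkv3-4, Fam220a, Mcam, Riok3, Rgs1, Bcl2l1 and Tnfrsf9. Riok3, a kinase of red cell precursors, rose by 1.43 in DTRADQ (SE 0.19, adjusted p = 3.757e-06) and by 1.12 in Con (SE 0.19, adjusted p = 3.124e-05), with a difference between genotypes of 0.30 (SE 0.26). Bcl2l1, which encodes the survival protein BCL-XL, rose by 1.42 in DTRADQ (SE 0.24, adjusted p = 0.0001976) and by 1.53 in Con (SE 0.24, adjusted p = 1.322e-05), with a difference of -0.11 (SE 0.33). Mcam, an adhesion molecule of pericytes and endothelium, rose by 1.44 in DTRADQ (SE 0.30, adjusted p = 0.002282), and its difference between genotypes was 1.76 (SE 0.45, adjusted p = 0.01051). The call of Tnfrsf9 was lost without no-DT replicate 3 or 2-day replicate 3. Igkv3-4 and Igkv2-112 are immunoglobulin segments, and the call of Igkv3-4 was lost without any of 6 of the 8 libraries. Igkv2-112 read 0.555 to 1.37 CPM without DT and 12.5, 8.83, 1.62 and 4.11 CPM after 2 days, and its call was lost without no-DT replicate 4.

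Response programmes moved in few members. Of 24 interferon genes, Rsad2 and Oas3 rose and Ifi27l2a fell, with a median of -0.02. Rsad2, an antiviral enzyme, read 584, 465, 469 and 561 CPM without DT and 887, 1373, 948 and 1942 CPM after 2 days (log2 1.31, SE 0.21, adjusted p = 0.0001528). Every treated library lay above every untreated one. Of 19 glucocorticoid response genes, Lcn2 rose, and Cdkn1c, a cell cycle inhibitor, and the metallothioneins Mt1 and Mt2 fell. Mt2 read 4.25, 6.16, 14.6 and 14.6 CPM and then 1.09, 2.1, 1.47 and 4.4 CPM (log2 -2.15, SE 0.51, adjusted p = 0.007058), and the lowest untreated library lay just under the highest treated one. Of 21 cholesterol genes, the enzyme Mvd and the regulator Srebf2 rose, by 0.70 and 0.54, and without no-DT replicate 4 neither passed. Of 15 cytokine and acute response genes, Lcn2 and Ptx3, a pattern recognition protein, rose, Ptx3 by 1.26 (SE 0.31, adjusted p = 0.01019). Nupr1 alone passed of 21 stress response genes and fell by 0.70. Of 17 clock genes edgeR called 0, with 3 at an unadjusted p under 0.05 and 1 called by DESeq2.

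Among cell types, Cebpe and Hk3 rose of 14 primary granule genes, of which 0 passed without 2-day replicate 3. Hdc, the enzyme that makes histamine, rose by 0.90 of 12 basophil and mast cell genes. Cd34 rose by 0.54 of 18 stem and progenitor genes. Cr2 and H2-Aa fell of 19 mature B and plasma cell genes, by 1.27 and 0.78, and Cenpe and Birc5 fell of 25 mitosis genes. Of 13 skeletal muscle genes Tnni2 fell, and the median was -2.39, with no-DT replicate 4 the highest library for this tissue. The 1 cartilage gene tested did not pass. No eosinophil gene of 10 passed with edgeR or DESeq2 or had an unadjusted p under 0.05. The calls of Ifi27l2a, Lcn2, Mt1, Srebf2, Nupr1, Hdc, Cr2, H2-Aa, Cd34, Tnni2, Cenpe and Birc5 were each lost without 3 or more single libraries in turn.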
